A study of Homo sapiens with 12 samples.

Results

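The ATF4 response and amino acid supply genes comprised 36 members, which are ATF4 itself, its partners and feedback genes, and genes for the synthesis, uptake and tRNA charging of amino acids. Members were taken by gene symbol from the annotation of an Affymetrix array of the human genome. A probe set that named 1 gene only was found for 35 members, with 66 probe sets in all, out of 19775 genes so represented. MARS1, the methionine tRNA synthetase, shared its probe sets with a microRNA gene and was not measured by itself. After genes with a mean under 6 on the log2 scale in all groups were left out, 33 members of 12852 genes were tested. VLDLR, a lipoprotein receptor, had group means of 3.32 to 3.42, SLC6A9, a glycine transporter, had group means of 4.65 to 4.97, and both were near background.

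HCT116 cells, a line grown from a human colorectal carcinoma that carries an oncogenic RAS allele, were set beside Hke3 and Hkh-2, in which that allele had been altered by homologous recombination, so that each recombined line is 1 clone. The 12 arrays formed 4 groups of 3, namely HCT116 control cells with vehicle and with 25 ng/ml doxycycline, both collected on day 3, and Hke3 and Hkh-2, for which the labels give no day. All cells were grown in DMEM with fetal bovine serum and L-glutamine. The methods give doxycycline or vehicle to HCT116 cells with inducible short-hairpin vectors, and basal condition to Hke3, Hkh-2 and parental HCT116. HCT116 titles hold ctl and a further number whose meaning they do not give, and those of Hke3 and Hkh-2 hold neither. Differences between HCT116 and a recombined line cannot be told apart from differences in vector or culture. Whether the vehicle arrays are the parental cells is not settled by the labels or the methods, and since neither names separate cultures for the arrays of a group, p-values rest on a spread that may be technical.

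ATF4 is a transcription factor whose protein is made chiefly when the initiation factor eIF2 is phosphorylated, by GCN2 when uncharged tRNA accumulates, by PERK when unfolded proteins burden the endoplasmic reticulum, and by further kinases under other stresses. It binds C/EBP-ATF response elements and raises transcription of genes that make, import and charge amino acids, together with genes that end or sharpen the response. DMEM supplies serine and glycine but no asparagine, proline, alanine, aspartate or glutamate, which cells in it must make. Doxycycline can slow translation in mitochondria, and mitochondrial stress is a known inducer of ATF4.

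Markers of colon epithelium had a group mean of at least 6 for 9 of 10 genes in every group, with LGALS4 near background, and their mean per array was 9.60 to 9.83 in HCT116 and Hke3 and 10.13 to 10.18 in Hkh-2. The mean of 7 markers of blood, endothelial and stromal cells was 5.47 to 5.91, and PTPRC, COL1A2 and CD14 were under 6 in all groups. COL3A1, a collagen of stroma, had a group mean of 6.73 in Hkh-2 and of 4.45 to 4.49 elsewhere, while COL1A1 was at 8.19 to 8.43 and PECAM1 at 6.56 to 6.86. The COL1A1 value is from a probe set that may bind several transcripts, and COL1A1 probe sets went in opposite directions against both lines. VWF, of endothelium, was at 6.33 to 6.35 in HCT116 and at 5.32 to 5.34 in the recombined lines. The part of these markers in the differences between lines was not tested. Vehicle replicate 2 and Hke3 replicate 3 were set apart from the rest of their groups, and the BioC spike-in was 8.37 in the former against 9.44 to 10.16 elsewhere. The 5′ minus 3′ difference of the actin control probe sets was −0.942 to −0.48 on the log2 scale in HCT116, and lay from −0.575 to −0.229 in the Hke3 arrays and from −0.324 to −0.232 in those of Hkh-2. Its part in the differences between lines was not tested.

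The members varied between the HCT116 arrays more than most genes did. The median SD of the 33 members over the 3 vehicle arrays was 0.285 on the log2 scale, against 0.124 for all 12852 genes, and in the doxycycline arrays it was 0.233 against 0.0749. In the recombined lines it was 0.116 against 0.132 for Hke3 and 0.0674 against 0.0827 for Hkh-2. The range over 3 arrays was largest in the vehicle group for 19 members, in the doxycycline group for 6, in Hke3 for 8 and in Hkh-2 for 0. The same count over all genes was not made. The median SD over all genes also differed between groups, but in another order, with Hke3 highest at 0.132 and the doxycycline group lowest at 0.0749. Whether the split of the largest ranges is particular to the members was therefore not tested.

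CHAC1, a target of ATF4 that encodes an enzyme which breaks down glutathione, had log2 values of 8.55, 8.63 and 6.98 in vehicle replicates 1, 2 and 3 and of 8.40, 8.23 and 6.95 in doxycycline replicates 1, 2 and 3. It was at 6.17, 6.51 and 6.80 in Hke3 and at 7.51, 7.34 and 7.28 in Hkh-2. Replicate 3 was thus the low array in both HCT116 groups, below all Hkh-2 arrays and just above those of Hke3. ASNS, the asparagine synthetase, had values of 12.01, 11.31 and 10.54 with vehicle and 11.86, 11.55 and 10.55 with doxycycline, against 10.54, 10.37 and 10.43 in Hke3 and 11.34, 11.33 and 11.48 in Hkh-2. The vehicle arrays of ASNS therefore spanned the distance from above Hkh-2 down to Hke3.

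TRIB3, a pseudokinase that restrains ATF4, was at 10.06, 9.46 and 9.16 with vehicle and at 10.06, 9.66 and 9.13 with doxycycline. Its values were 9.72, 9.88 and 9.77 in Hke3 and 9.63, 9.74 and 9.81 in Hkh-2, within the range of the HCT116 arrays. ATF4 mRNA itself was at 13.09, 13.00 and 12.72 with vehicle and 12.94, 13.03 and 12.71 with doxycycline, a narrower range in which replicate 3 was again the lowest. It was at 12.29, 12.35 and 12.29 in Hke3 and at 12.67, 12.68 and 12.67 in Hkh-2, so that each HCT116 array lay above both lines. DDIT3, which encodes CHOP, was at 8.28, 7.92 and 7.81 with vehicle, 8.09, 8.12 and 7.67 with doxycycline, 8.63, 8.14 and 8.07 in Hke3 and 8.36, 8.09 and 8.11 in Hkh-2, with overlap between all 4 groups.

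**Figure D1:**
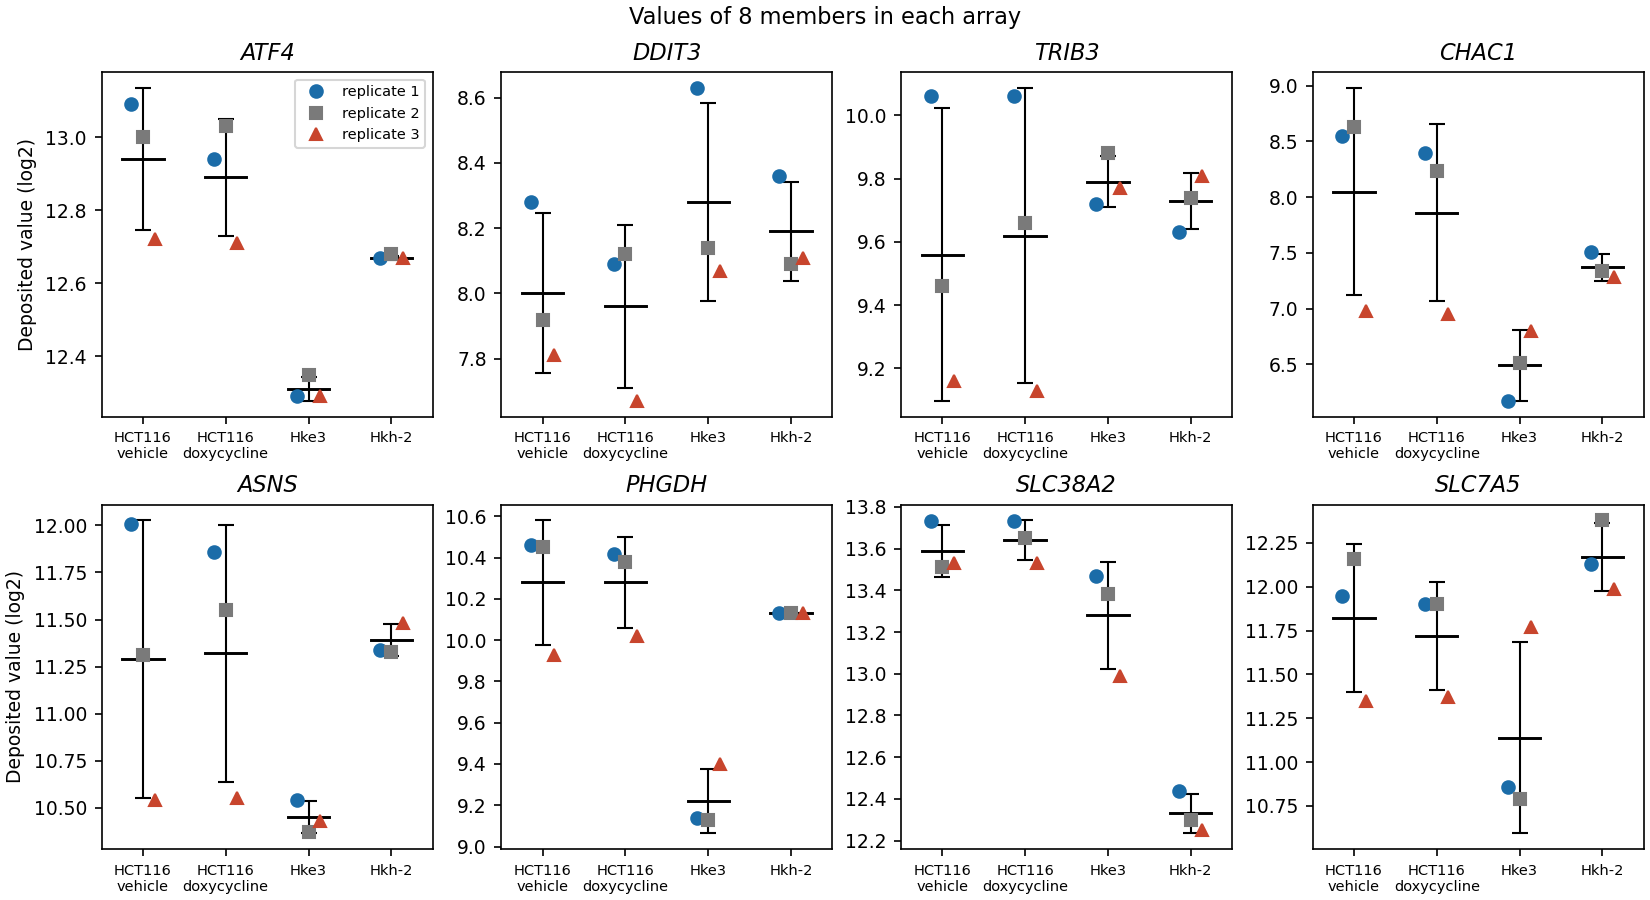
Deposited log2 values of 8 members in each of 12 arrays, by group, with replicate 1 as a circle, replicate 2 as a square and replicate 3 as a triangle; bars show mean and SD of 3 arrays and each panel has its own axis. In both HCT116 groups replicate 3 is lowest for 7 of the panels with vehicle and for all 8 with doxycycline, while ATF4 and PHGDH are lowest in Hke3 and SLC38A2 is lowest in Hkh-2.

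Replicate 3 was the lowest of the 3 arrays for 27 of 33 members with vehicle, where this held for 29.7% of all genes, and for 31 of 33 with doxycycline, where it held for 34.5%. It was lowest in both groups for 27 members, against 15.2% of all genes. The median difference of replicate 3 from the mean of replicates 1 and 2 was −0.47 with vehicle and −0.39 with doxycycline over the members, and 0.00 and 0.01 over all genes. A difference of over 0.3 downward in both groups was seen for 17 of 33 members and for 0.412% of all genes. When all 12852 genes were ranked by this difference averaged over both groups, 19 members were among the 100 genes with the lowest values, with CHAC1 at rank 2, ASNS at 4, JDP2 at 5, SLC1A4 at 7 and STC2 at 8. Further probe sets of the members, which were not used in the fits, had replicate 3 lowest in both groups for 18 of 25.

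The difference was of like size in both groups for the members with the largest differences. For CHAC1 it was −1.61 with vehicle and −1.37 with doxycycline, for ASNS −1.12 and −1.15, for JDP2, an AP-1 family repressor, −0.95 and −0.92, and for SLC1A4, a transporter of neutral amino acids, −0.75 and −0.92. It was less alike for others, such as PYCR1 (−0.39 and −0.11), SHMT2 (−0.25 and −0.12), SLC1A5 (−0.65 and −0.4) and YARS1 (−0.25 and −0.44). Over the 33 members, the deviations of same-numbered vehicle and doxycycline arrays from their group means correlated with r = 0.892, 0.562 and 0.934 for replicates 1, 2 and 3, against r = 0.228, 0.212 and 0.453 over all genes. These are correlations across genes of the same arrays, which are not independent replicates, and the 3 deviations of a group sum to 0. Labels do not say what same-numbered arrays share. In a limma F-test of the replicate number over these 6 arrays, chosen after the values were seen, 0 members and 0% of all genes were called at an adjusted p under 0.05. At an unadjusted p under 0.05 it gave 23 of 33 members and 1260 of 12852 genes, and the lowest adjusted p, 0.0761, was shared by 4 genes, among them CHAC1, ASNS and JDP2.

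**Figure D2:**
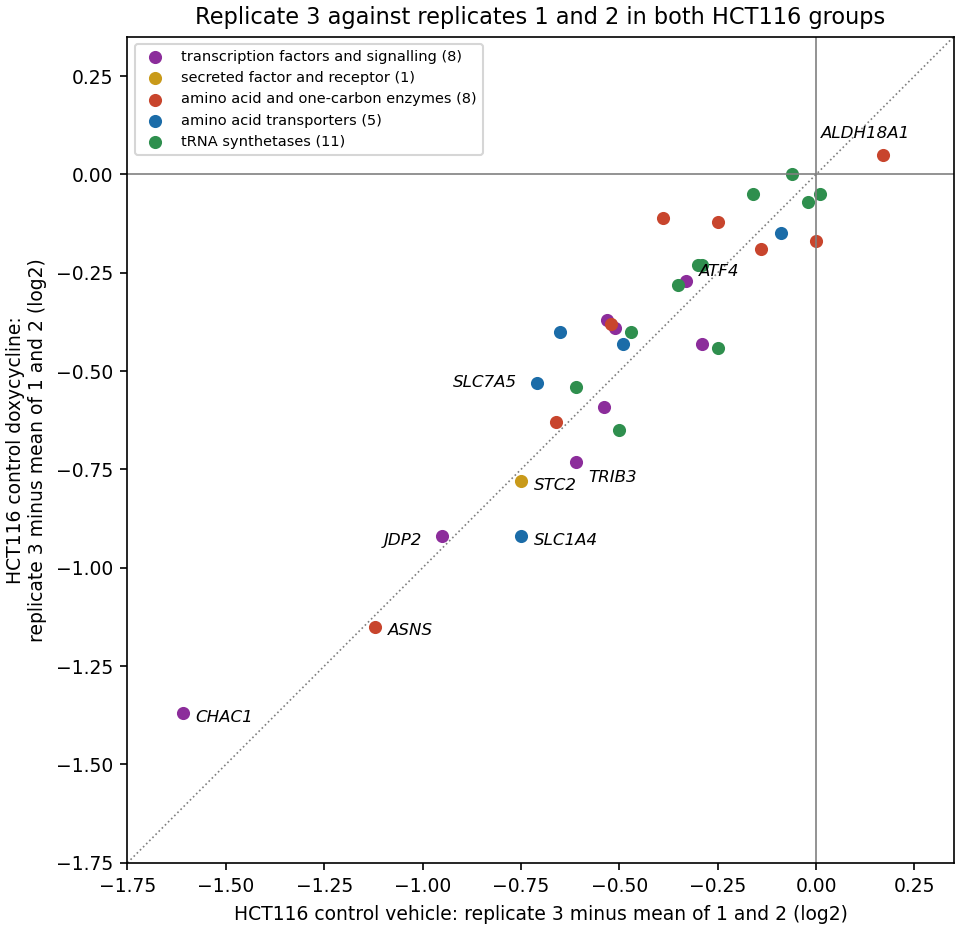
Replicate 3 minus the mean of replicates 1 and 2 on the log2 scale for 33 members, with HCT116 control vehicle on the x axis and HCT116 control doxycycline on the y axis; colours mark the role of each gene, numbers in the key count members, and the dotted line marks equal values. Nearly all members lie below 0 on both axes and near the line, from ALDH18A1 at 0.17 and 0.05 down to CHAC1 at −1.61 and −1.37.

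By role, replicate 3 was lowest in both HCT116 groups for 8 of 8 transcription factors and signalling genes, for STC2, which encodes a secreted glycoprotein, for 6 of 8 enzymes, for 4 of 5 transporters and for 8 of 11 tRNA synthetases. Among the enzymes, PSAT1 and PHGDH of serine synthesis differed by a mean of −0.65 (SE 0.0736) and −0.45 (SE 0.0765) over both groups, while PSPH, the last enzyme of that pathway, differed by −0.08 and ALDH18A1 of proline synthesis by 0.11. Among the synthetases, GARS1 and CARS1 differed by −0.58 and −0.57, while NARS1, IARS1 and LARS1 differed by −0.05, −0.02 and −0.03. Genes of the same role were thus unlike in this respect.

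Other genes of the response, which are no members, showed the same pattern in part. Of 14 further ATF4 and integrated stress response targets tested, 7 had replicate 3 lowest in both groups and 5 were among the 100 lowest genes, with GDF15, a stress-induced secreted factor, at rank 6. SLC7A11, the cystine importer and a known ATF4 target, was at rank 1 of all 12852 genes. It had values of 10.65, 9.76 and 8.67 with vehicle and of 10.38, 10.23 and 8.67 with doxycycline. It is 1 of 14 other amino acid transporters tested, of which 5 had replicate 3 lowest in both groups and 3 were among the 100 lowest genes. Replicate 3 was lowest in both groups for 4 of 13 other enzymes of amino acid and folate metabolism and 1 of 7 other cytosolic synthetases and partners. The same held for 1 of 15 eIF2 kinases, eIF2 or eIF2B subunits and their regulators (the regulator PPP1R15B) and for 0 of 15 mitochondrial tRNA synthetases. The counts were 1 of 16 for the unfolded protein response outside ATF4 and 2 of 7 for mitochondrial stress, where the share of all genes is 15.2%. In these 6 lists 0 genes were among the 100 lowest. The 5′ minus 3′ actin difference was −0.717 and −0.706 in replicate 3, within the −0.942 to −0.48 of the other 4 HCT116 arrays, and the marker means of the HCT116 arrays were 9.63 to 9.68 for colon epithelium and 5.66 to 5.86 for other cells. Their part in the pattern was not tested.

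Promoters of the members were searched for a core of the C/EBP-ATF response element, TGATGNAA, on both strands (TTNCATCA on the other), in RefSeq windows of 300 bases from 250 before to 50 after each annotated start in the GRCh38.p14 assembly. Windows were in the table for 31 members, and 14 of them held the letters in at least 1 window, a share of 45.2%, against 295 of 10355 tested genes, a share of 2.85%. By window, the shares were 28% of 50 and 2.07% of 15041. Members were chosen as genes of the ATF4 response, so these shares describe the list. Stretches of 40 bases around the match are shown for 4 members with large differences between HCT116 replicates (ASNS, CHAC1, JDP2 and SLC1A4), for the synthetase genes GARS1 and AARS1, and for NARS1 and IARS1, which hold a match and whose replicate 3 differed little from the other arrays. Each is written 5′ to 3′ on the strand of the gene, with the match in capitals.
ASNS: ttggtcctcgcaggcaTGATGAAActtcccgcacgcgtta
CHAC1: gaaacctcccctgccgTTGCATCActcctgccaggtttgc
JDP2: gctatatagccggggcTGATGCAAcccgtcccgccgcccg
SLC1A4: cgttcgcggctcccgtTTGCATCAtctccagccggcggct
GARS1: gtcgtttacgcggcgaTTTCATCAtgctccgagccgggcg
AARS1: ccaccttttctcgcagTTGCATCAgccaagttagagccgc
NARS1: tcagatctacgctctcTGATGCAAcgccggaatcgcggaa
IARS1: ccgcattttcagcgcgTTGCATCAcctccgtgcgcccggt

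These stretches lie at chr7:97872453-97872492 on the minus strand for ASNS, chr15:40953246-40953285 on the plus strand for CHAC1, chr14:75427990-75428029 on the plus strand for JDP2 and chr2:64989376-64989415 on the plus strand for SLC1A4. Those of the synthetases lie at chr7:30594829-30594868 on the plus strand for GARS1, chr16:70289670-70289709 on the minus strand for AARS1, chr18:57621799-57621838 on the minus strand for NARS1 and chr9:92293687-92293726 on the minus strand for IARS1. With the annotated start of its window as 0, the match began at −68 in ASNS, −209 in CHAC1, −16 in JDP2 and −7 in SLC1A4. It began at −33 in GARS1, −187 in AARS1 and −13 in IARS1, and at 14, inside the transcript, in NARS1. ASNS, JDP2, SLC1A4 and GARS1 have more than 1 window. Their matches also lie inside the annotated spans of these genes, which begin further upstream. The median difference of replicate 3, averaged over both HCT116 groups, was −0.53 for the 13 tested members with a match and −0.36 for the 15 tested members whose windows held none. A match is a run of letters and was not shown here to be bound.

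Doxycycline did not change any member at the threshold. In the comparison of HCT116 control doxycycline with vehicle, limma called 0 of 33 members and 0% of all genes in either direction, and at an unadjusted p under 0.05 the counts were 0 members and 127 genes. Member differences lay between −0.20 and 0.16 on the log2 scale with a median of 0.01, and 0 members had arrays without overlap between these groups, against 2.45% of all genes with doxycycline above and 1.91% with it below. Same-numbered arrays deviated together, and with them paired the median SE of the members was 0.0733 in place of 0.156, with 0 members at an unadjusted p under 0.05 and 0 genes called. ATF4, CHAC1 and ASNS differed by −0.05 (paired SE 0.0733), −0.20 (paired SE 0.0894) and 0.03 (paired SE 0.0908). Of the 7 genes of mitochondrial stress, 0 were called.

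HCT116 control vehicle had higher levels of many members than Hke3. Of 33 members, 19 were higher and 1 was lower, where 24.6% of all genes were higher and 23.2% lower, and the median difference was 0.46 on the log2 scale over the members and 0.04 over all genes. Arrays did not overlap between the groups, with HCT116 above, for 15 members, against 25.5% of all genes. The higher members were 3 of 8 transcription factors and signalling genes, 5 of 8 enzymes, 3 of 5 transporters, 7 of 11 tRNA synthetases and STC2. Leaving out the vehicle arrays in turn moved the count of higher members between 14 and 21. With probe sets that may bind several transcripts left out, 9 of the 21 members still measured were higher, against 23.2% of all genes.

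Of the regulators, ATF4 was 1.54-fold higher (log2 difference 0.63, SE 0.101, adjusted p = 0.000246) and CHAC1 2.95-fold higher (1.56, SE 0.414, adjusted p = 0.00759). SESN2, which restrains mTORC1 when amino acids are short, was 1.39-fold higher (adjusted p = 0.0431), with arrays that overlapped, and was not called without vehicle replicate 1 (0.43, adjusted p = 0.108). A second SESN2 probe set, not used in the fit, differed by 0.77, with nearest arrays at 7.53 in vehicle and 7.52 in Hke3. CEBPB, the C/EBP family factor that dimerizes with ATF4, went the other way, with 11.67, 11.76 and 11.18 in vehicle against 12.01, 11.89 and 12.24 in Hke3 (−0.51, SE 0.15, adjusted p = 0.0139), and without vehicle replicate 3 it was no longer called (−0.33, adjusted p = 0.0577). DDIT3, TRIB3, CEBPG and JDP2 were not called, with differences of −0.28, −0.23, 0.12 and −0.50. The second TRIB3 probe set differed by 0.30, opposite to the one used.

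Among the enzymes, PHGDH, which commits glucose carbon to serine, was at 10.46, 10.45 and 9.93 in vehicle against 9.14, 9.13 and 9.40 in Hke3. No arrays overlapped, and it was 2.08-fold higher (1.06, SE 0.143, adjusted p = 6.03e-05). SHMT2 and MTHFD2, which pass serine carbon to folate in mitochondria, were higher by 0.54 and 0.25, PSAT1 by 0.52 and PYCR1 of proline synthesis by 0.46. Without vehicle replicate 1, MTHFD2 (0.16, adjusted p = 0.183) and PSAT1 (0.35, adjusted p = 0.149) were not called, and without vehicle replicate 2, PYCR1 was not (0.25, adjusted p = 0.16). Second probe sets of MTHFD2 and PSAT1, not used in the fit, differed by 1.12 and 0.96 without overlap of arrays. Both may bind several transcripts. Further SHMT2 probe sets differed by 0.22 and 0.61. ASNS was 1.79-fold higher in the mean, but its arrays overlapped and it was not called (0.84, SE 0.333, adjusted p = 0.0528). Without vehicle replicate 3 it was called (1.22, adjusted p = 0.00588). ALDH18A1 and PSPH were not called, with differences of 0.20 and −0.01. A second ALDH18A1 probe set, not used in the fit, differed by 0.56 without overlap of arrays.

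Of the transporters, SLC7A5, which imports leucine and other large neutral amino acids, was at 11.95, 12.16 and 11.35 in vehicle and at 10.86, 10.79 and 11.77 in Hke3. Hke3 replicate 3 lay among the vehicle arrays, and the difference was 0.68 (SE 0.259, adjusted p = 0.0441), which was not called without vehicle replicate 1 (0.62, adjusted p = 0.114). SLC1A5, the glutamine transporter, was higher by 0.90 (SE 0.236, adjusted p = 0.00702), and its Hke3 arrays were at 9.27, 9.20 and 10.02, again with replicate 3 apart. The vehicle arrays of SLC1A5, at 10.33, 10.89 and 9.97, overlapped with those of Hke3. SLC38A2, which carries small neutral amino acids, was higher by 0.31 (adjusted p = 0.0464) and was not called without vehicle replicate 1 (0.23, adjusted p = 0.16) or replicate 3 (0.34, adjusted p = 0.0597). Other SLC38A2 probe sets, not used in the fit, differed by 0.68 and 0.77 without overlap of arrays. The calls of SESN2, MTHFD2, PSAT1, PYCR1, SLC7A5 and SLC38A2 against Hke3 were each also lost without at least 1 of the Hke3 arrays. SLC3A2, the heavy chain that partners SLC7A5, and SLC1A4 were not called, with differences of 0.22 and 0.30.

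Of 11 tRNA synthetases, 7 were higher. EPRS1 was higher by 0.63 (SE 0.0734, adjusted p = 1.63e-05) and IARS1 by 0.57 (SE 0.078, adjusted p = 6.98e-05). AARS1, GARS1, WARS1, SARS1 and LARS1 were higher by 0.78, 0.67, 0.62, 0.52 and 0.37. NARS1, YARS1, TARS1 and CARS1 were not called, with differences of −0.15, 0.26, 0.26 and 0.36. Other CARS1 probe sets, not used in the fit, differed by 0.67, 1.05 and 0.16, the last of them near background. STC2 was 1.92-fold higher (0.94, SE 0.216, adjusted p = 0.00306), with 9.59, 9.39 and 8.74 in vehicle against 8.41, 8.23 and 8.26 in Hke3. A second STC2 probe set differed by only 0.10, with arrays that overlapped. The calls of STC2 and SHMT2 against Hke3 were not kept under every alternative.

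**Figure D3:**
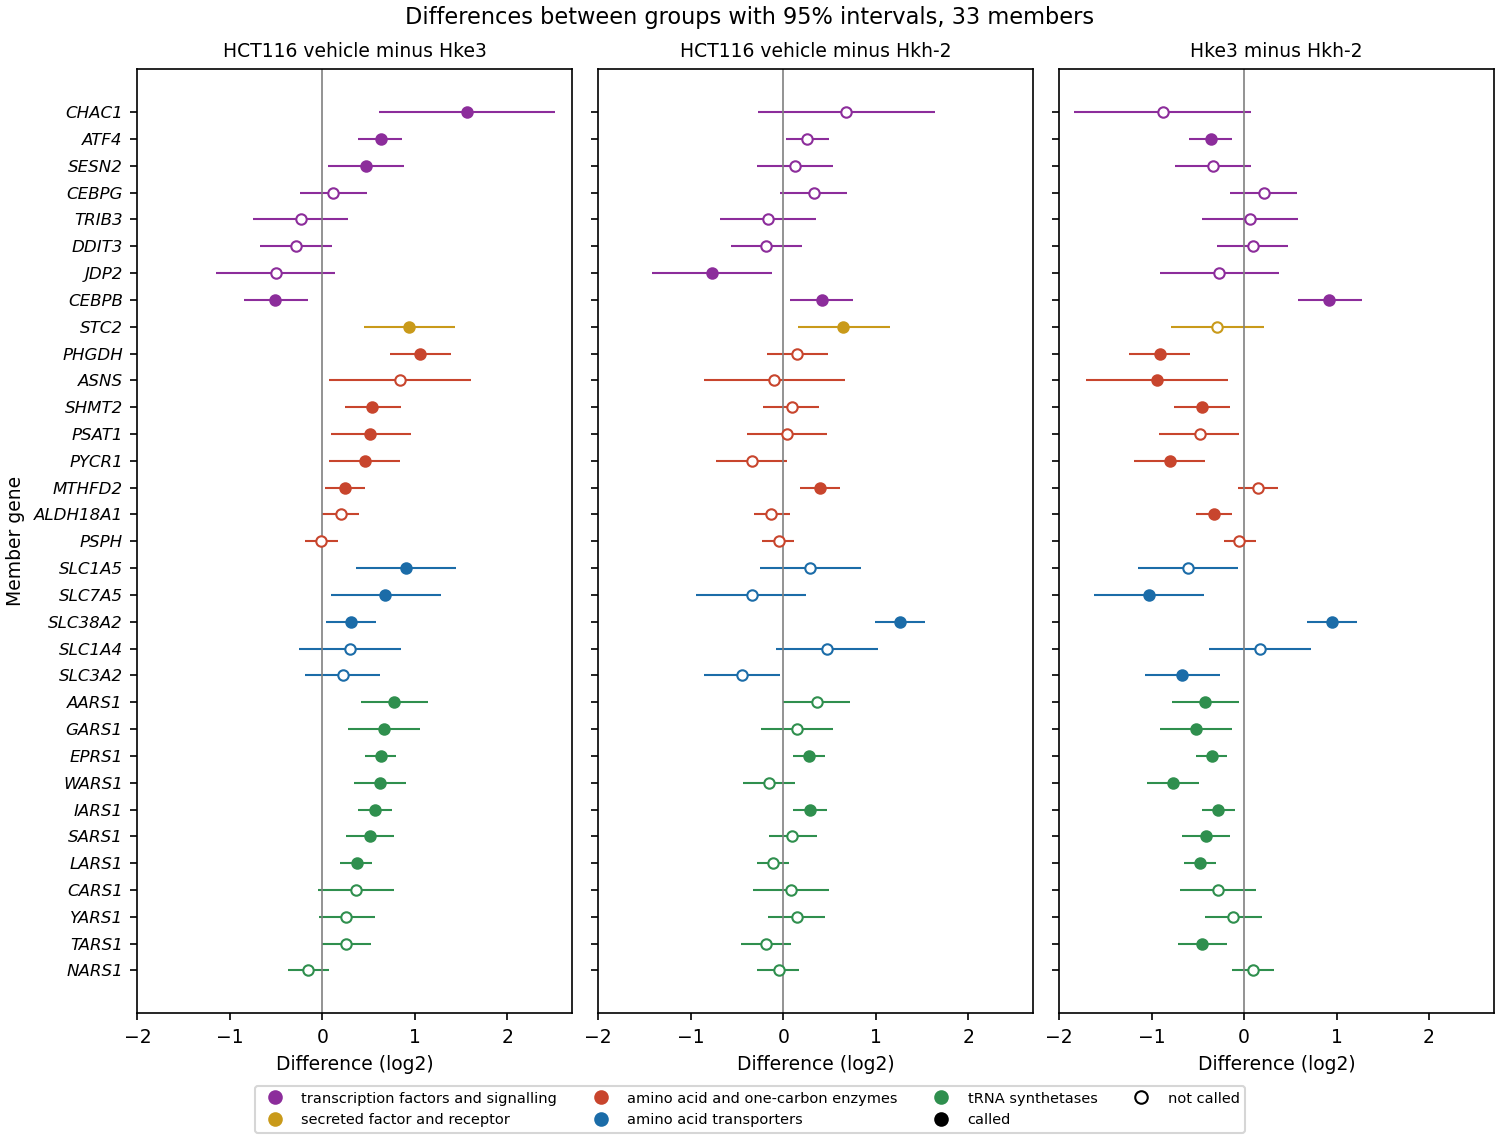
Differences in log2 value with 95% intervals for 33 members, in HCT116 control vehicle minus Hke3 (left), HCT116 control vehicle minus Hkh-2 (middle) and Hke3 minus Hkh-2 (right); colours mark roles, and filled points were called at an adjusted p under 0.05. In the left panel 19 filled points lie above 0 and 1 below, in the middle panel 6 and 1, and in the right panel 2 and 16.

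Against Hkh-2, fewer members differed. Of 33, 6 were higher and 1 was lower, against 14.3% and 21.7% of all genes, with a median difference of 0.10 for the members and −0.02 for all genes. The share of members higher, 18.2%, was near that of all genes. Without vehicle replicate 3 the count of higher members was 11, and without vehicle replicate 1 it was 3. Arrays did not overlap for 7 members with HCT116 above, against 20.8% of all genes, and for 3 with HCT116 below, against 28.2%.

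SLC38A2 gave the largest difference, with 13.73, 13.51 and 13.53 in vehicle, 13.73, 13.65 and 13.53 with doxycycline, 13.47, 13.38 and 12.99 in Hke3 and 12.44, 12.30 and 12.25 in Hkh-2. All HCT116 arrays lay above Hke3, and all Hke3 arrays above Hkh-2, from which HCT116 differed 2.39-fold (1.26, SE 0.117, adjusted p = 2.55e-06). STC2 was higher by 0.65 (adjusted p = 0.031), MTHFD2 by 0.40 (adjusted p = 0.00471), EPRS1 by 0.28, IARS1 by 0.29 and CEBPB by 0.42 (adjusted p = 0.0454). JDP2 was lower (−0.77, SE 0.281, adjusted p = 0.0478), at 8.02, 7.50 and 6.81 against 8.29, 8.27 and 8.08, and was not called without vehicle replicate 3 (−0.45, adjusted p = 0.194). ATF4 just missed the threshold (0.26, SE 0.101, adjusted p = 0.0583), and CHAC1, ASNS and PHGDH differed by 0.68, −0.10 and 0.15 with 95% intervals of −0.27 to 1.64, −0.86 to 0.67 and −0.18 to 0.48. Without vehicle replicate 3, CHAC1 (1.22, adjusted p = 0.0137) and ATF4 (0.37, adjusted p = 0.00942) were called. Without vehicle replicate 1, STC2 (0.48, adjusted p = 0.134), IARS1 (0.24, adjusted p = 0.0539) and CEBPB (0.35, adjusted p = 0.147) were not, and the calls of STC2, CEBPB and JDP2 were also lost when any 1 of the Hkh-2 arrays was left out.

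Higher in HCT116 control vehicle than in both lines were 5 members, STC2, MTHFD2, SLC38A2, EPRS1 and IARS1, against 9.04% of all genes, and 0 were lower than both, against 12.6%. The count of 5 ranged from 1 without vehicle replicate 1 to 7 without vehicle replicate 3. Both comparisons share the vehicle arrays. For STC2, a second probe set differed by only 0.10 against Hke3 and by 0.31 against Hkh-2.

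How far a single HCT116 array lay from the lines depended on its replicate number. Of 33 members, 26, 25 and 16 were above all 3 Hke3 arrays in vehicle replicates 1, 2 and 3, and 28, 26 and 18 in the doxycycline replicates, where between 36.1% and 42.6% of all genes were. Above all 3 Hkh-2 arrays were 23, 20 and 7 members with vehicle and 21, 21 and 6 with doxycycline, against 33.9% to 38.5% of all genes. Below all Hkh-2 arrays were 19 and 22 members in the replicate 3 arrays of vehicle and doxycycline, and 5 to 11 in the other 4 arrays, against 41.9% to 43.4% of all genes over the 6 arrays. The median member minus the Hkh-2 mean was 0.34 and 0.18 in vehicle replicates 1 and 2 and −0.14 in replicate 3. Replicate 3 was thus on the other side of Hkh-2 from the other HCT116 arrays, while against Hke3 the median stayed above 0, at 0.56, 0.47 and 0.20 with vehicle.

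**Figure D4:**
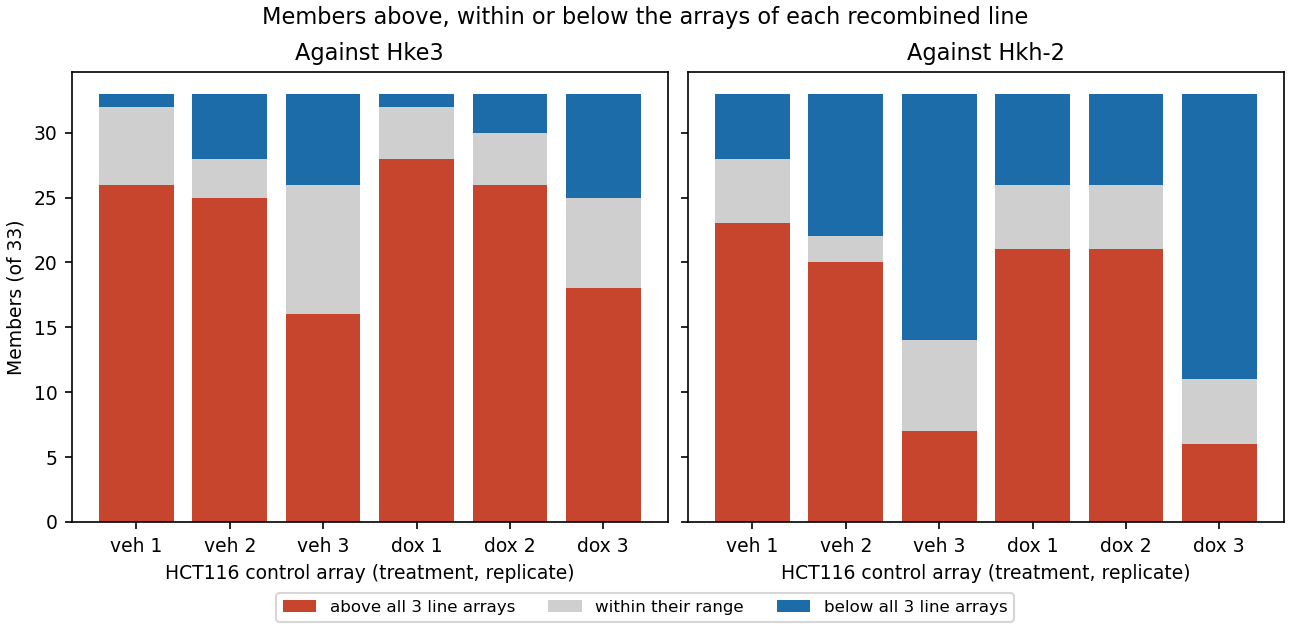
Number of the 33 members above all 3, within the range of, or below all 3 arrays of Hke3 (left) and Hkh-2 (right), for each HCT116 control array on the x axis (veh, vehicle; dox, doxycycline; the digit is the replicate number). Against Hkh-2, 7 and 6 members are above in the replicate 3 arrays and 20 to 23 in the others.

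The recombined lines differed from each other. In Hke3 minus Hkh-2, 2 members were higher and 16 lower, against 16.3% and 23.5% of all genes, and the median was −0.35 for the members and −0.06 for all genes. Arrays did not overlap for 23 members with Hke3 below, against 28.2% of all genes. The lower members were 8 of 11 tRNA synthetases, 5 of 8 enzymes (ASNS, PHGDH, SHMT2, ALDH18A1 and PYCR1), SLC7A5, SLC3A2 and ATF4. Of the 8 synthetases, 6 remain if EPRS1 and LARS1, whose probe sets differ in sign, are set aside. PHGDH was at 10.13 in each Hkh-2 array, so that Hke3 was lower (−0.91, SE 0.143, adjusted p = 0.000279), and ASNS was lower too (−0.94, adjusted p = 0.0392), but was not called when any 1 array of either recombined line was left out. Calls of AARS1, GARS1, SHMT2, IARS1 and SARS1 were also lost without at least 1 of these arrays. SLC7A5 was at 12.13, 12.38 and 11.99 in Hkh-2 and lower in Hke3 (−1.03, SE 0.259, adjusted p = 0.00686). The higher members were CEBPB, at 11.17, 11.18 and 11.01 in Hkh-2 (0.92, SE 0.15, adjusted p = 0.00036), and SLC38A2 (0.95, SE 0.117, adjusted p = 3.78e-05).

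In Hke3, replicate 3 was the highest array for 21 of 33 members, and 7 of them exceeded both other arrays by over 0.3. The share of all genes was not counted. The median absolute deviation of this array from its group mean was 0.124 for the members and 0.124 for all genes, so the members did not stand out in absolute size. With the sign kept, the median deviation was 0.0864 for the members and 0.0286 for all genes. Without Hke3 replicate 3, the median difference between the recombined lines was −0.39. Of the members, 17 had more than 1 probe set at a group mean of at least 6. Probe sets of CEBPG, SESN2, WARS1 and LARS1 differed in sign against Hkh-2, those of TRIB3 against Hke3, and those of CEBPG, STC2, EPRS1 and LARS1 between the recombined lines. For EPRS1, the probe set used differed by −0.35 between Hke3 and Hkh-2 and the others by 0.31 and 0.27, while all 3 had higher means in HCT116 than in either line, by 0.63, 0.98 and 0.87 against Hke3 and 0.28, 1.29 and 1.14 against Hkh-2. The direction of EPRS1 between the recombined lines is therefore not settled.

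The genes upstream of ATF4 were 15 eIF2 kinases, eIF2 or eIF2B genes and their regulators, such as GCN1 and PPP1R15B. Of them, 7 were higher in HCT116 control vehicle than in Hke3 and 2 lower, against 24.6% and 23.2% of all genes. Compared with Hkh-2, the counts were 3 and 5, against 14.3% and 21.7%. EIF2AK3, which encodes PERK, was lower than in Hke3 and Hkh-2 (−0.72 and −0.70, adjusted p = 1.13e-05 and 1.67e-05), as was EIF2AK2, which encodes the RNA-activated kinase PKR (−0.67 and −0.90). GCN1, the activator of GCN2, was higher than in both (0.67 and 0.34), and so was PPP1R15B, a subunit of the phosphatase that acts on eIF2 (0.37 and 0.37). Of 16 genes of the unfolded protein response outside ATF4, 6 were lower than in both lines, against 12.6% of all genes, and 0 higher, against 9.04%. Among the 6 were PDIA4 (−0.90 and −0.94), SEL1L (−0.90 and −0.69), DNAJB9 (−0.86 and −0.72) and EDEM1 (−0.75 and −0.59), which act in protein folding and disposal in the endoplasmic reticulum.

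Of the 14 further targets tested, 2 were higher and 1 lower in HCT116 control vehicle than in both lines, against 9.04% and 12.6% of all genes. CTH, which makes cysteine from cystathionine, was higher by 2.63 than in Hke3 and by 2.50 than in Hkh-2, and its doxycycline arrays were at 11.84, 11.88 and 11.91, with replicate 3 not the lowest. DDIT4, an inhibitor of mTORC1, was higher by 0.62 and 1.57, and GDF15 was lower (−1.01 and −1.35). Among 13 other enzymes of amino acid and folate metabolism, ASS1 of arginine synthesis (0.76 and 0.60) and MTHFD1 (0.33 and 0.21) were higher than in both lines and GLUL, the glutamine synthetase, was lower (−0.47 and −0.68).

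Of 14 other amino acid transporters tested, SLC38A1, a relative of SLC38A2, was higher than in both lines (1.09 and 0.38), and SLC36A1 was lower (−0.26 and −0.50). SLC1A3, a glutamate and aspartate transporter, was lower (−2.30 and −4.57), with a vehicle mean near background at 5.95. Of 15 mitochondrial tRNA synthetases, 10 were higher than in Hke3 and 0 lower, against 24.6% and 23.2% of all genes, and CARS2 (0.47 and 0.39) and MARS2 (0.78 and 0.23) were higher than in both lines. Of 7 other cytosolic synthetases and partners, FARSB was higher than in both lines (0.33 and 0.22), and HARS1, VARS1 and AIMP1 differed from Hke3 alone at the threshold, by 0.50, 1.28 and −0.35. Of 7 genes of mitochondrial stress, OMA1, the protease that starts the signal from mitochondria to eIF2, was lower than in both lines (−0.84 and −0.51), LONP1 and CLPP were higher than in Hke3 (0.89 and 0.31), and HSPA9, whose probe sets went in opposite directions against Hkh-2, was lower than in Hkh-2 (−0.25).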

How the data were processed

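Each of the 4 groups (HCT116 control cells given vehicle or 25 ng/ml doxycycline, and both recombined lines) had 3 Affymetrix arrays. Values on the log2 scale, made with RMA, were deposited by the authors. RMA corrects background and normalizes between arrays. The version, chip definition and arrays normalized together are not given in the sources used here. From these values, each gene took the brightest of its probe sets on average, among those naming 1 gene, and was kept where a group mean was at least 6. limma 3.58.1 in R 4.3.3 (lmFit, eBayes) was fitted to all 12 arrays, with Benjamini-Hochberg adjustment over 12852 genes. The procedure was tested on simulated data. Precision is limited by the number of arrays, and an exact test of 3 against 3 arrays cannot go below p = 0.1. Members and lists were chosen with earlier results of these data known. Values in every array were given, in the text or a figure, for ATF4, DDIT3, TRIB3, CHAC1 and ASNS and for members called with a log2 difference of at least 1. Values in some of the arrays were given for SLC1A5, CEBPB, JDP2 and STC2 after their values were seen. Of each other list, up to 4 genes called against both lines, or else those with the lowest adjusted p, were named, and SLC7A11 was named after its values were seen. Same-numbered vehicle and doxycycline arrays were treated as pairs, though the labels give no pairing. Over all genes their deviations correlated with r = 0.228, 0.212 and 0.453 for replicates 1, 2 and 3. Vehicle with Hke3 gave 0.355, −0.578 and −0.58, and vehicle with Hkh-2 gave −0.0459, 0.422 and 0.337. Correlations over all genes therefore do not by themselves establish the pairing. The replicate F-test and the pairing of the 6 HCT116 arrays alone were chosen after seeing the data. The targeted gene itself is not reported here.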

Additional observations from a re-analysis of the deposited data

Results flagged for a closer look

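The difference from HCT116 control vehicle depended on the recombined line for 18 of 33 members, as tested by limma's contrast of Hke3 with Hkh-2 at an adjusted p under 0.05, where 16.3% of all genes were higher and 23.5% lower in Hke3. Hke3 was lower for ATF4 (−0.36 on the log2 scale), for the enzymes ASNS (−0.94), PHGDH (−0.91), PYCR1 (−0.80), SHMT2 (−0.46) and ALDH18A1 (−0.33), and for the transporter chains SLC7A5 (−1.03) and SLC3A2 (−0.67). It was lower for the synthetase genes WARS1 (−0.77), GARS1 (−0.52), LARS1 (−0.48), TARS1 (−0.45), AARS1 (−0.42), SARS1 (−0.41), EPRS1 (−0.35) and IARS1 (−0.28). Hke3 was higher for CEBPB (0.92) and SLC38A2 (0.95). CEBPB was the member called in opposite directions against the 2 lines, lower in HCT116 than in Hke3 and higher than in Hkh-2. The probe sets of EPRS1 and of LARS1 differ in sign in this contrast.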

How the results depend on the processing

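Of the single-member results, 2814 kept their direction and call under the alternatives, 134 lost the call, 68 gained one and 1 reversed, which was EPRS1 in Hke3 minus Hkh-2, at 0.08 with the mean of its probe sets. Apart from the setting that requires a log2 difference of at least 1, the members called under each alternative in which they were tested were 11 of the 19 members higher than Hke3, 3 of the 6 higher than Hkh-2 and 7 of the 16 lower in Hke3 than in Hkh-2.

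With probe sets that may bind several transcripts left out, 21 members remained for testing, of which 9 were higher than Hke3 (median 0.25), 3 higher than Hkh-2, 2 higher than both lines, and 1 higher and 7 lower in Hke3 than in Hkh-2. Members higher than both lines, 5 as reported, were 3 with no filter, with array medians subtracted and with the compared groups alone, and 2 without vehicle replicate 2 and Hke3 replicate 3. The 1 member lower than Hkh-2 became 0 when probe sets were averaged, with no filter and with cyclic loess, 2 with medians subtracted or the compared groups alone, and 3 with vehicle and doxycycline pooled or without those 2 arrays. With a log2 difference of at least 1 required, 2 members were higher and 0 lower than Hke3, 1 higher and 0 lower than Hkh-2, 0 higher and 1 lower in Hke3 than in Hkh-2, and 0 higher than both lines. The causes were not tested beyond what each setting removes by construction.

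With the replicate block over all 12 arrays, 18 members were higher and 2 lower than Hke3, 8 were higher than Hkh-2 and 6 higher than both lines. The labels give no pairing between HCT116 arrays and those of a recombined line. In doxycycline minus vehicle, the replicate block left 0 calls among the members.

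Leaving out each array in turn, the counts ranged from 13 to 21 higher and 0 to 3 lower than Hke3 (median 0.35 to 0.56), from 3 to 11 higher and 0 to 2 lower than Hkh-2 (median 0.01 to 0.26), from 1 to 7 higher and 0 to 1 lower than both lines, and from 11 to 19 lower, with 2 higher, in Hke3 than in Hkh-2 (median −0.39 to −0.31). For doxycycline minus vehicle the median ranged from −0.14 to 0.10 with 0 calls. Vehicle replicates 1 and 3 set most of these ends: without replicate 3 there were 21 members higher than Hke3, 11 higher than Hkh-2 and 7 higher than both, and without replicate 1 there were 14, 3 and 1. The number of arrays limits what could be detected.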
